A study of Homo sapiens with 8 samples.

Results

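Interferon response genes are the genes that cells switch on when interferons bind their receptors, and 42 of them were followed here by symbol in a lung cancer cell line and its drug-resistant derivatives. A probe set of a single gene symbol was found for 40 of the 42, and where a gene had several, the one with the highest average over the 8 arrays was read. Of these, 20 were bright enough to test, among 10527 tested genes of 18132 in all. STAT2 had no probe set of a single symbol, and the only probe set of USP18 was shared with other genes, so neither was analysed here. Members were listed by name, with earlier results of these data known.

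RNA levels were measured on 8 arrays, 1 per condition and without replicates. H3122 is a lung adenocarcinoma line driven by the EML4-ALK fusion kinase, and all 3 lines carry that label. Parental H3122 cells and the ceritinib-resistant line H3122-LR2 were each measured untreated, after 6 h with 1000 nM crizotinib and after 6 h with 1000 nM ceritinib. The ceritinib-resistant line H3122-LR3 was measured untreated and with 1000 nM ceritinib for 6 h. Crizotinib and ceritinib both inhibit the ALK kinase. Cells were grown in RPMI with serum, and no label names an added interferon. The labels do not say how LR2 and LR3 were derived, whether each is a clone, or whether arrays came from separately grown cultures. Values are log2 probe set signals, so a difference of 1 is a 2-fold change. For line comparisons, p-values and standard errors measure how a line difference varied over agents, and not a spread between replicate cultures. For agent comparisons they measure how an agent difference varied over lines.

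Type I and type III interferons act through receptor-bound JAK kinases on STAT proteins, which join IRF9 in a complex that binds the interferon-stimulated response element (ISRE) of target promoters. Type II interferon acts through a STAT pair on the gamma-activated site (GAS). The induced genes include transcription factors that amplify the response, sensors and binders of viral RNA, the ubiquitin-like protein ISG15 with its conjugating enzymes, and membrane proteins that block viral entry. In tumour cells part of this programme can be active without added interferon.

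The promoters were searched for letters of both elements, because these are what interferon response genes are known to share. RefSeq promoters (GRCh38.p14, 250 bases before to 50 after the start) were matched for 33 of the 42 members. IFIT2, IFITM2, MX2, OAS2, OASL, IRF7, GBP2, TRIM22 and USP18 were not matched. The ISRE letters GAAANNGAAA, on either strand, were in 22 of 33 members (66.7%), against 996 of 27305 promoters (3.65%). The GAS letters TTCNNNGAA, which read the same on both strands, were in 9 of 33 members (27.3%), against 7.88% of all promoters, and in 3 members a match of one overlapped a match of the other. The ISRE letters stood in 10 of 17 tested members (58.8%) and in 12 of 15 members too dim to test (80%). For the GAS letters these were 7 of 17 (41.2%) and 2 of 15 (13.3%), and called members came from the tested ones alone. Of the members called in the comparisons between lines that are given below, the ISRE letters stood in 5 of 7 with a promoter in the table for LR2 and in 2 of 6 for LR3, and the GAS letters in 3 of 7 and 4 of 6. Such a match is a description of the letters and not a measured binding site.

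The stretches printed here lie before the start site of members that the results turn on, read in the direction of the gene. Capitals mark the ISRE letters in the first 7 and the GAS letters in the last 3. IFITM1 and IFITM3 are neighbours that differed unlike each other between lines, ISG15 was highest in LR3, IFIH1, PARP14 and ISG20 differed in LR2, and IFIT1 is a classical target that was dim on every array. IFI35, OAS1 and IRF9 were higher in LR3 and held GAS letters without ISRE letters.
IFITM1 (chr11:313975-314034, plus strand): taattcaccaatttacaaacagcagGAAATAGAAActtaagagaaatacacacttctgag
IFITM3 (chr11:320861-320920, minus strand): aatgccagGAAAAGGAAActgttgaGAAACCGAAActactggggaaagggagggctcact
ISG15 (chr1:1013365-1013424, plus strand): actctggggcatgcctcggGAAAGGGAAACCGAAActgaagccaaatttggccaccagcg
IFIH1 (chr2:162318685-162318730, minus strand): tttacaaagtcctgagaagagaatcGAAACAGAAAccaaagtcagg
PARP14 (chr3:122680785-122680838, plus strand): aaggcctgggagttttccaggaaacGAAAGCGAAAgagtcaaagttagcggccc
ISG20 (chr15:88638922-88638981, plus strand): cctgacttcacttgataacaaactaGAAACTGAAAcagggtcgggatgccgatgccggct
IFIT1 (chr10:89392495-89392554, plus strand): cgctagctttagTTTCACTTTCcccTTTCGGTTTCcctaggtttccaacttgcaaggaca
IFI35 (chr17:43006737-43006783, plus strand): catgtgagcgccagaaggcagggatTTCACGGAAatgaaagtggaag
OAS1 (chr12:112906769-112906827, plus strand): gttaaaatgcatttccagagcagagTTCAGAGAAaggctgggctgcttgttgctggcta
IRF9 (chr14:24161177-24161235, plus strand): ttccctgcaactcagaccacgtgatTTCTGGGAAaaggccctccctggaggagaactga

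A gene was tested when its signal exceeded 5.36, the median of all values in the table, on at least 2 arrays, and is called dim otherwise. Array medians lay between 5.31 and 5.36, except for 5.46 on the LR2 ceritinib array. All 10 lung adenocarcinoma markers examined, such as EPCAM, NKX2-1 and NAPSA, were bright enough to test. Of the markers of other cell types, 11 of 14 leukocyte, 4 of 4 plasmacytoid dendritic cell, 8 of 9 fibroblast and 4 of 7 endothelial genes were dim. The mean log2 level of the leukocyte list lay between 4.37 and 4.47 on the 8 arrays, and that of the fibroblast list between 3.48 and 3.89. The fibroblast gene that was tested, LUM, was 3.26 to 4.03 in parental cells, 4.20 to 4.70 in LR2 and 6.12 on both LR3 arrays. It differed from parental cells by 0.90 in LR2 and 2.42 in LR3, and its part in the results was not tested. LUM passed the filter through its LR3 arrays alone, and its other values lay below 5.36, where differences may be compressed. The collagen genes COL1A1, COL1A2 and COL3A1 were dim.

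The 20 members that were not tested stayed below 5.36 on all 8 arrays, with values between 2.81 and 5.27. Many of the most strongly interferon-induced genes were among them. They were the antiviral GTPases MX1, MX2, GBP1 and GBP2, the RNA-binding proteins IFIT1, IFIT2 and IFIT3, the oligoadenylate synthetases OAS2 and OAS3, and the DNA sensor IFI16. The helicase DDX60, the ligase HERC5 for ISG15, the antiviral ubiquitin ligase TRIM22, the virus-tethering protein BST2 and the chemokine CXCL10 were dim too, as were IFI44, IFI44L, XAF1, SAMD9 and SAMD9L. MX1 was between 3.02 and 3.91, IFIT1 between 3.01 and 3.33, and CXCL10 between 2.81 and 3.22. Their median range over the 8 arrays was 0.415, against 0.71 for the tested members.

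**Figure D1:**
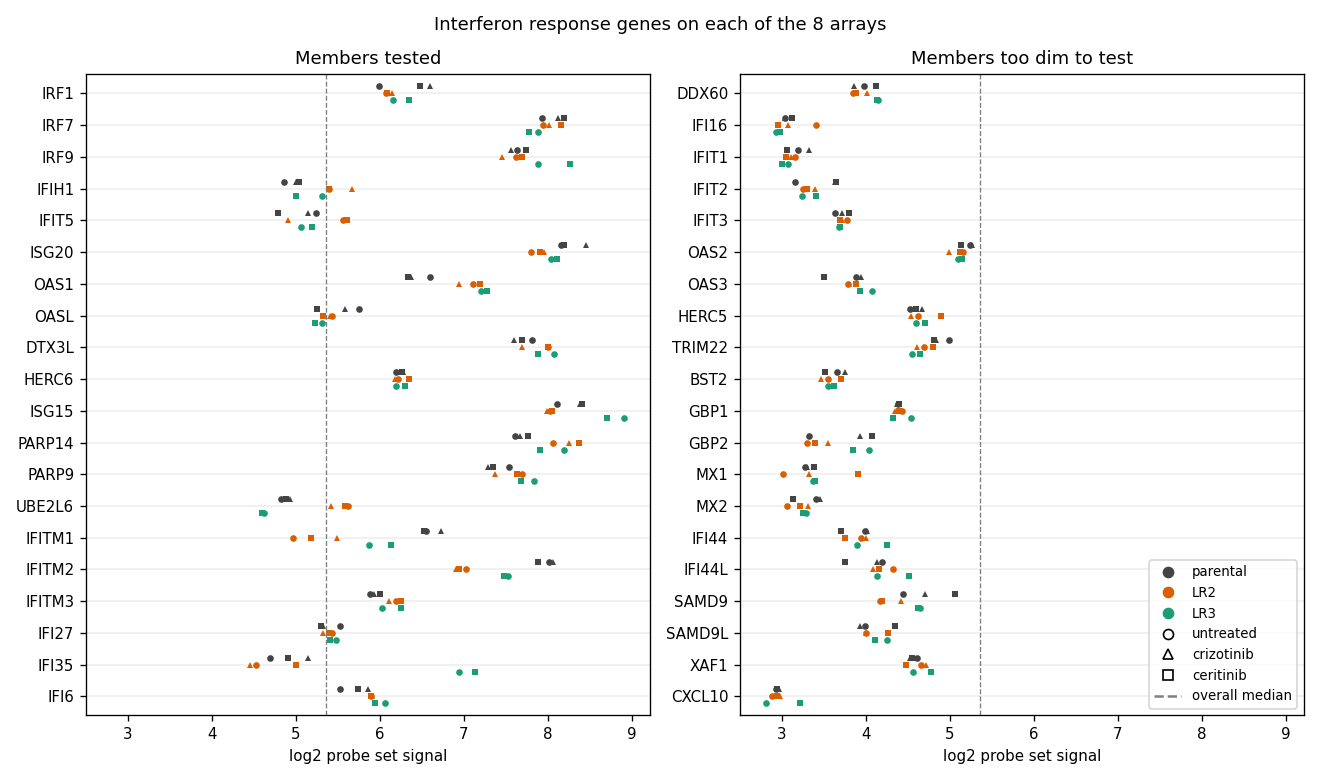
Log2 probe set signal (x axis) of each member on each of the 8 arrays, coloured by line and with the symbol giving the agent, for the 20 members tested (left) and the 20 too dim to test (right). The dashed line is the overall median of 5.36, and all points on the right lie below it, while IFI35 passes it on the LR3 arrays alone and UBE2L6 on the LR2 arrays alone.

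Comparisons between lines asked which members differed in ceritinib-resistant cells across agents. In LR2, 5 of 20 tested members were higher than in parental cells and 3 were lower, 8 in all, while 12.8% of all tested genes were called higher and 9.68% lower, together 22.5% (limma, line and agent as additive terms, Benjamini-Hochberg adjusted p under 0.05). In LR3, 5 were higher and 2 lower than in parental cells, against 9.53% and 12.1% of all genes, together 21.6%. In LR3 against LR2, 5 were higher and 1 lower, against 7.29% and 12.3% of all genes, together 19.6%. The split of all genes moved with scaling. For LR2 it was 1350 higher and 1019 lower as deposited and 1178 and 1408 after quantile normalization, for LR3 it was 1003 and 1271 as deposited and 1498 and 1223 after median centring, and for LR3 against LR2 it was 767 and 1297 as deposited and 1290 and 1103 after median centring. Median centring gave 10 member calls in LR3, 8 of them higher, and 7 in LR2. In these bulk samples, fewer cells of a type and less RNA per cell cannot be told apart.

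The members did not move as one group in either line. Their median difference from parental cells was 0.00 in LR2, with a range from -1.39 to 0.66, beside a median of 0.02 over all tested genes. In LR3 the median was 0.10, with a range from -0.50 to 2.12, beside 0.01 over all genes. The median size regardless of sign was 0.25 in LR2 and 0.27 in LR3, against 0.14 and 0.16 for all genes.

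The comparisons of LR2 and LR3 with parental cells share the parental arrays, so their values stand side by side and are not independent. Of the tested members, 4 passed the brightness filter on arrays of 1 line alone, IFI35 in LR3 and IFIH1, IFIT5 and UBE2L6 in LR2. Such members were tested only through the arrays of that line, so their calls are not independent of the filter. Of these members, IFIT5 was not called. Without them, 3 of 16 were higher and 3 lower in LR2, 4 higher and 2 lower in LR3, and 4 higher and 0 lower in LR3 against LR2.

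The LR2 count of 8 calls was 4 without the parental crizotinib array and 4 without the LR2 crizotinib array. Fits without an array have fewer degrees of freedom for every gene. The shares of all genes called in them are not given here, so the member counts were not set against those shares. The LR3 count of 7 became 3 when either untreated array of parental or LR3 cells was left out, 4 when the LR3 ceritinib array was, and 0 when the matched arrays were used alone in 2 pairs. In that last fit no gene of the table was called, while 10 members and 3092 genes had an unadjusted limma p under 0.05.

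**Figure D2:**
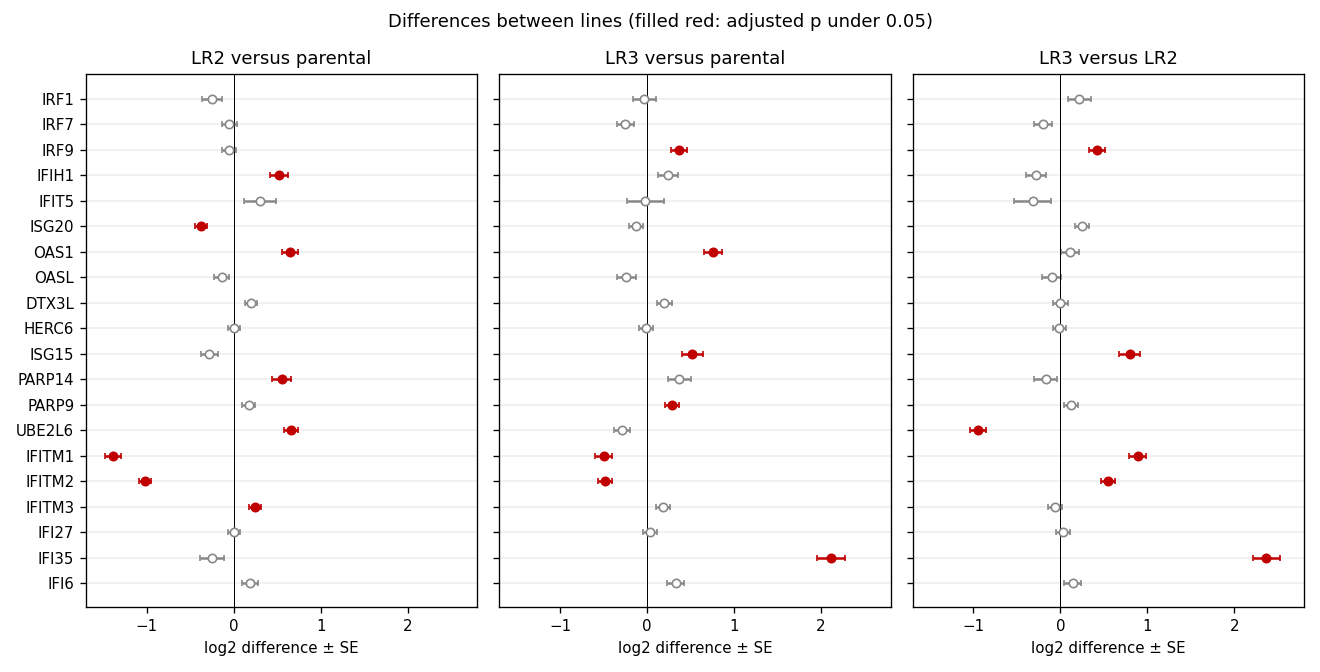
Log2 difference (x axis, with standard error of limma as bars) of the 20 tested members for LR2 against parental, LR3 against parental and LR3 against LR2, with filled red points for an adjusted p under 0.05. IFITM1 and IFITM2 lie furthest to the left in LR2, at -1.39 and -1.02, and IFI35 furthest to the right in LR3, at 2.12.

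Among transcription factors, IRF9, the DNA-binding partner of the STAT proteins, was 7.63 untreated, 7.56 with crizotinib and 7.74 with ceritinib in parental cells. It was 7.62, 7.46 and 7.70 in LR2 in the same order, and 7.88 untreated and 8.26 with ceritinib in LR3. Both LR3 arrays lay above all others, while parental and LR2 arrays overlapped. IRF9 was higher in LR3 than in parental cells by 0.37 ± 0.09 (SE, 2 of 2 matched arrays, limma adjusted p = 0.0283), and it was higher than in LR2 by 0.42 ± 0.09 (adjusted p = 0.018).

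All 3 other IRF9 probe sets were higher in LR3 too, by 0.21 to 0.36. In 8 of 18 alternative fits the call against parental cells was lost (adjusted p up to 0.259). These were the fits without any 1 of the parental arrays, without the LR2 crizotinib array and without the LR3 ceritinib array, those without the agent term or the brightness filter, and the one with matched arrays alone. The call against LR2 was lost in 5 of 18 fits, without either crizotinib array, without either ceritinib array of a resistant line and with matched arrays alone (adjusted p up to 0.199).

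IRF1, a factor induced chiefly by type II interferon, and IRF7, which drives interferon genes themselves, were not called in the comparisons of lines as reported. IRF1 differed by -0.25 ± 0.11 in LR2 (adjusted p = 0.134, called lower without the untreated parental array) and by -0.03 ± 0.13 in LR3. IRF7 differed by -0.05 ± 0.09 in LR2 and by -0.25 ± 0.10 in LR3 (adjusted p = 0.131).

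Among sensors and RNA-binding effectors, OAS1 was called higher in both resistant lines. OAS1 is an enzyme that senses double-stranded RNA and activates RNase L. It was 6.60 untreated, 6.37 with crizotinib and 6.34 with ceritinib in parental cells. In LR2 it was 7.11, 6.95 and 7.19, and in LR3 it was 7.21 untreated and 7.28 with ceritinib. All 5 resistant arrays lay above the 3 parental arrays.

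OAS1 rose by 0.65 ± 0.09 in LR2 (1.57-fold, 3 of 3 matched arrays, adjusted p = 0.00212). It rose by 0.76 ± 0.10 in LR3 (1.69-fold, 2 of 2 matched arrays, adjusted p = 0.00239). Its 4 bright probe sets all had the same sign but not the same size, 0.10 to 0.65 in LR2 and 0.29 to 0.76 in LR3. With the mean of all its probe sets the values were 0.39 and 0.52. The LR3 call was lost with matched arrays alone (adjusted p = 0.102).

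IFIH1, the cytoplasmic sensor of long double-stranded RNA also called MDA5, was 4.86 untreated, 5.0 with crizotinib and 5.04 with ceritinib in parental cells. It was 5.40, 5.67 and 5.40 in LR2, so the LR2 arrays lay above the parental ones. In LR3 it was 5.31 untreated and 5.0 with ceritinib, and it was called there only without the parental ceritinib array. The rise in LR2 was 0.52 ± 0.10 (adjusted p = 0.0101), and it was lost without either crizotinib array of parental or LR2 cells (adjusted p up to 0.0792). Parental values below 5.36 may be compressed.

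ISG20, an RNA exonuclease, was lower in LR2, at 7.80 untreated, 7.96 with crizotinib and 7.91 with ceritinib against 8.16, 8.46 and 8.20 in parental cells. It fell by 0.38 ± 0.07 (adjusted p = 0.00783), and every LR2 array was below every parental array. The call was lost without either crizotinib array of these lines (adjusted p up to 0.055). In LR3 it was 8.04 and 8.11, a difference of -0.13 ± 0.08 without a call.

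IFIT5, which binds viral RNA ends, and OASL, an OAS-like protein without the synthetase activity, were not called. IFIT5 differed by 0.30 ± 0.18 in LR2 and OASL by -0.24 ± 0.11 in LR3 (adjusted p = 0.161). Without the parental ceritinib array, OASL was called in LR3 against parental cells and IFIT5 in LR3 against LR2.

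The ubiquitin-like modifier ISG15 was 8.11 untreated, 8.38 with crizotinib and 8.41 with ceritinib in parental cells. It was 8.03, 7.99 and 8.05 in LR2, and 8.91 untreated and 8.71 with ceritinib in LR3. The 3 lines did not overlap, with LR2 lowest and LR3 highest. Its only probe set has the suffix _s_at, for probes that may also bind other transcripts, and ISG15 was not tested in the fits without such probe sets. ISG15 rose by 0.52 ± 0.12 in LR3 against parental cells (1.44-fold, 2 of 2 matched arrays, adjusted p = 0.0188) and was higher than in LR2 by 0.80 ± 0.12 (adjusted p = 0.00337).

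The ISG15 difference of -0.28 ± 0.10 between LR2 and parental cells was not called (adjusted p = 0.0858), but it was after quantile normalization and without the untreated parental array. The difference between LR3 and parental cells was 0.80 between the untreated arrays and 0.30 between the ceritinib arrays. The LR3 call was lost without either of the untreated arrays of these lines and with matched arrays alone (adjusted p up to 0.179).

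UBE2L6, the conjugating enzyme that hands ISG15 to its targets, went the other way. It was 4.83 untreated, 4.93 with crizotinib and 4.88 with ceritinib in parental cells, and 5.62, 5.42 and 5.59 in LR2. In LR3 it was 4.62 untreated and 4.60 with ceritinib, the lowest values of the 8. UBE2L6 rose by 0.66 ± 0.08 in LR2 (1.58-fold, 3 of 3 matched arrays, adjusted p = 0.00123). It was lower in LR3 than in LR2 by 0.95 on the log2 scale, written as -0.95 ± 0.09 (adjusted p = 0.000632). Both calls were kept in all 15 alternative fits in which the gene was tested. UBE2L6 passed the brightness filter through its LR2 arrays alone, so these fits are not separate support. All its parental and LR3 values lay below 5.36, where differences may be compressed. The difference of -0.29 ± 0.09 between LR3 and parental cells was not called (adjusted p = 0.059), except in the fit on the mean of probe sets per gene. UBE2L6 had 1 probe set, so its own values were unchanged in that fit. That probe set also carries the suffix _s_at, so UBE2L6 was not tested in the fits without such probe sets. HERC6, a relative of the dim ligase HERC5, differed by 0.00 ± 0.07 in LR2 and by -0.01 ± 0.08 in LR3.

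PARP9, PARP14 and DTX3L are ADP-ribosyltransferases and a ubiquitin ligase that act together in interferon signalling. PARP14 was 7.61 untreated, 7.67 with crizotinib and 7.76 with ceritinib in parental cells. It was 8.06, 8.25 and 8.37 in LR2, and 8.19 untreated and 7.91 with ceritinib in LR3. All 5 resistant arrays were above the parental arrays. PARP14 rose by 0.55 ± 0.11 in LR2 (3 of 3 matched arrays, adjusted p = 0.0107), and in LR3 the difference was 0.37 ± 0.13 (adjusted p = 0.0734). In LR3 it missed the threshold in the reported fit but passed in 5 of 18 alternatives, which were median centring, the mean of its probe sets, robust limma-trend, no _s_at or _x_at probe sets, and no LR3 ceritinib array.

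The PARP14 call in LR2 was lost without either crizotinib array or without the LR2 ceritinib array (adjusted p up to 0.0755), and with the mean of its probe sets the value was 0.29. PARP9 rose in LR3 by 0.29 ± 0.08 (adjusted p = 0.0405), and 12 of 18 alternative fits, 7 of them leaving out 1 array, lost this call (adjusted p up to 0.371). Of the 8 arrays, the LR2 ceritinib array alone could be left out without losing it. DTX3L differed by 0.20 in both lines without a call, except in LR3 after median centring.

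The interferon-induced transmembrane proteins IFITM1, IFITM2 and IFITM3 block the fusion of enveloped viruses with cell membranes. IFITM1 was 6.55 untreated, 6.73 with crizotinib and 6.53 with ceritinib in parental cells. It was 4.97, 5.49 and 5.18 in LR2, and 5.87 untreated and 6.13 with ceritinib in LR3. The 3 lines were fully separate, with LR2 lowest and parental cells highest.

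IFITM1 fell by 1.39 ± 0.09 in LR2 on the log2 scale (2.62-fold, 3 of 3 matched arrays, adjusted p = 7.42e-05), and by 0.50 ± 0.10 in LR3 (1.42-fold, 2 of 2 matched arrays, adjusted p = 0.0118). LR3 exceeded LR2 by 0.89 ± 0.10 (adjusted p = 0.00119). The LR2 fall kept its call in 17 of 17 alternative fits. The LR3 fall was lost in 4 of 17, without either untreated array of these lines, without the LR3 ceritinib array and with matched arrays alone (adjusted p up to 0.115).

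IFITM2 showed the same order of lines. It was 8.01 untreated, 8.06 with crizotinib and 7.89 with ceritinib in parental cells, 7.03, 6.91 and 6.95 in LR2, and 7.53 and 7.48 in LR3 untreated and with ceritinib. It fell by 1.02 ± 0.07 in LR2 (2.03-fold, adjusted p = 0.000132) and by 0.48 ± 0.08 in LR3 (adjusted p = 0.0075), and LR3 exceeded LR2 by 0.55 ± 0.08 (adjusted p = 0.00416). The LR3 fall was lost without either LR3 array and with matched arrays alone (adjusted p up to 0.103). The call of LR3 against LR2 was lost without the LR3 ceritinib array and with matched arrays alone (adjusted p up to 0.0535).

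IFITM3 did not follow. It was 5.89 untreated, 5.93 with crizotinib and 6.01 with ceritinib in parental cells, 6.19, 6.11 and 6.26 in LR2, and 6.03 untreated and 6.26 with ceritinib in LR3. Its rise of 0.24 ± 0.07 in LR2 (adjusted p = 0.0414) was lost in 14 of 16 alternative fits, which included leaving out any single array, and in LR3 the difference of 0.18 ± 0.08 was not called.

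The IFITM genes are close paralogs, and the probe sets used for all 3 carry the suffix for probes that may bind other genes. The other IFITM1 probe set, which lacks that suffix, gave -1.43 in LR2 and -0.53 in LR3. The other IFITM2 probe set, which has it, gave -0.82 and -0.26. Which paralog each probe set read was therefore not established for IFITM2 and IFITM3.

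IFI35, an interferon-induced leucine zipper protein, had the largest difference of any member. It was 4.69 untreated, 5.15 with crizotinib and 4.91 with ceritinib in parental cells, and 4.53, 4.46 and 5.01 in LR2. In LR3 it was 6.94 untreated and 7.13 with ceritinib, so that the LR3 arrays stood apart from the other 6, which overlapped. The rise in LR3 was 2.12 ± 0.16 against parental cells (4.36-fold, 2 of 2 matched arrays, adjusted p = 0.000185) and 2.37 ± 0.16 against LR2 (5.19-fold, adjusted p = 0.000103).

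Its other probe set gave 1.92 against parental cells and 2.51 against LR2. The rise over parental cells kept its call in 15 of the 16 alternative fits in which the gene was tested. It was lost with matched arrays alone (adjusted p = 0.0966). IFI35 passed the brightness filter through its LR3 arrays alone, so these fits are not separate support. Values outside LR3 lay below 5.36, where differences may be compressed. IFI6, a mitochondrial protein that opposes apoptosis, differed by 0.19 ± 0.09 in LR2 and by 0.33 ± 0.10 in LR3 (adjusted p = 0.0518). In LR3 it was called higher in 4 of 18 alternatives. These were quantile normalization, median centring, a filter on the mean level, and the mean of probe sets per gene. IFI6 had 1 probe set, so its own values were unchanged in the last of these. IFI27, which promotes apoptosis, differed by 0.00 ± 0.07 and 0.03 ± 0.08.

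Neighbouring genes were set beside members to see whether a member moved with its surroundings. The order of genes was taken from RefSeq, and up to 5 tested genes on each side were read for members that differed at least 2-fold between lines. Around IFI35, 2 of 10 neighbours were called higher in LR3 than in parental cells, VAT1 by 0.33 and DHX8 by 0.28. Of all tested genes, 9.53% were called higher there. The 10 ranged from -0.09 to 0.36 with a median of 0.25, against 2.12 for IFI35 and a median of 0.01 over all tested genes. Around IFITM1, the neighbour IFITM2 was the only one of 10 called lower in LR2, beside 9.68% of all genes. IFITM3, which follows IFITM1 on the other side, was higher by 0.24. In LR3, IFITM2 and RIC8A, at -0.27, were called lower, beside 12.1% of all genes. The tested genes next to the pair of IFITM2 and IFITM1 were PGGHG, at -0.07 in LR2, and IFITM3.

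**Figure D3:**
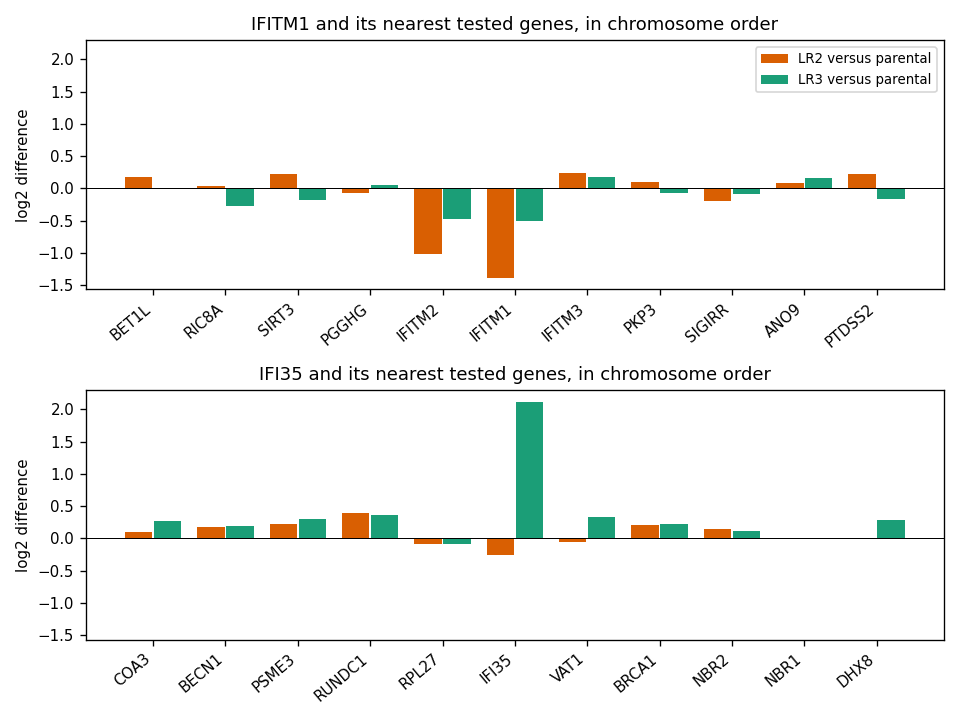
Log2 difference from parental cells (y axis) in LR2 and LR3 for IFITM1 (top) and IFI35 (bottom) and the 5 tested genes on each side, in chromosome order without scale. IFITM2 and IFITM1 stand below all their neighbours in LR2, at -1.02 and -1.39, and IFI35 stands above all its neighbours in LR3, at 2.12.

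Comparisons of agents asked whether ALK inhibition changed the members within 6 h. No member was called for ceritinib or for crizotinib against untreated cells over the lines. For ceritinib, 0% of all genes were called, and 2 members had an unadjusted limma p under 0.05. For crizotinib 3.76% of all genes were called, 2.82% higher and 0.94% lower, and 5 members had an unadjusted p under 0.05. The members ranged from -0.23 to 0.30 with ceritinib and from -0.31 to 0.38 with crizotinib. The largest crizotinib difference was that of IFITM1, 0.38 ± 0.10 (adjusted p = 0.0725). The probe set used was 6.73 with crizotinib against 6.55 untreated in parental cells, and 5.49 against 4.97 in LR2. The other IFITM1 probe set, which lacks the suffix for probes that may bind other genes, gave 0.19. It was higher with crizotinib in parental cells, but in LR2 it was 5.21 against 5.24 untreated. These LR2 values and the 4.97 lay below 5.36, where differences may be compressed. Without the parental ceritinib array 2 members were called for crizotinib, IFITM1 higher and PARP9 lower, so this count rested on that array. The robust limma-trend fit also called 0 members for each agent.

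For responses within a line, the inhibitor arrays were set against the untreated array of that line. In parental cells and LR2 these were 2 inhibitor arrays against 1, and in LR3 1 ceritinib array against 1. The spread came from the gap between crizotinib and ceritinib in parental cells and LR2, treated as replicates, and was assumed for LR3 and for untreated cells. The model called 0 members and 0% of all genes in parental cells, in LR2 and in LR3, and the robust limma-trend fit also called 0 members. At an unadjusted p under 0.05 there were 3 members in parental cells, 0 in LR2 and 0 in LR3, among 1849, 1015 and 499 genes. IRF1 had the largest parental difference. It was 5.99 untreated, 6.60 with crizotinib and 6.48 with ceritinib in parental cells, 6.08, 6.15 and 6.09 in LR2, and 6.16 and 6.35 in LR3 untreated and with ceritinib. The parental difference was 0.55 ± 0.11 (adjusted p = 0.142), against 0.04 ± 0.11 in LR2 and 0.19 ± 0.12 in LR3.

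The difference between the LR2 and parental responses of IRF1 was -0.51 ± 0.15, with an unadjusted p = 0.0173 in limma and an adjusted p = 0.998. That of ISG15 between LR3 and parental cells was -0.48 ± 0.15 (adjusted p = 0.91). For each of these 2 differences between lines 0 genes were called, and 251 and 505 genes had an unadjusted p under 0.05, 1 of them a member in each case. With 1 untreated array in each line and 2 residual degrees of freedom, these counts of 0 do not show that the lines responded alike. The IRF1 value came from the probe set used alone, and another of its probe sets rose in LR2.

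**Figure D4:**
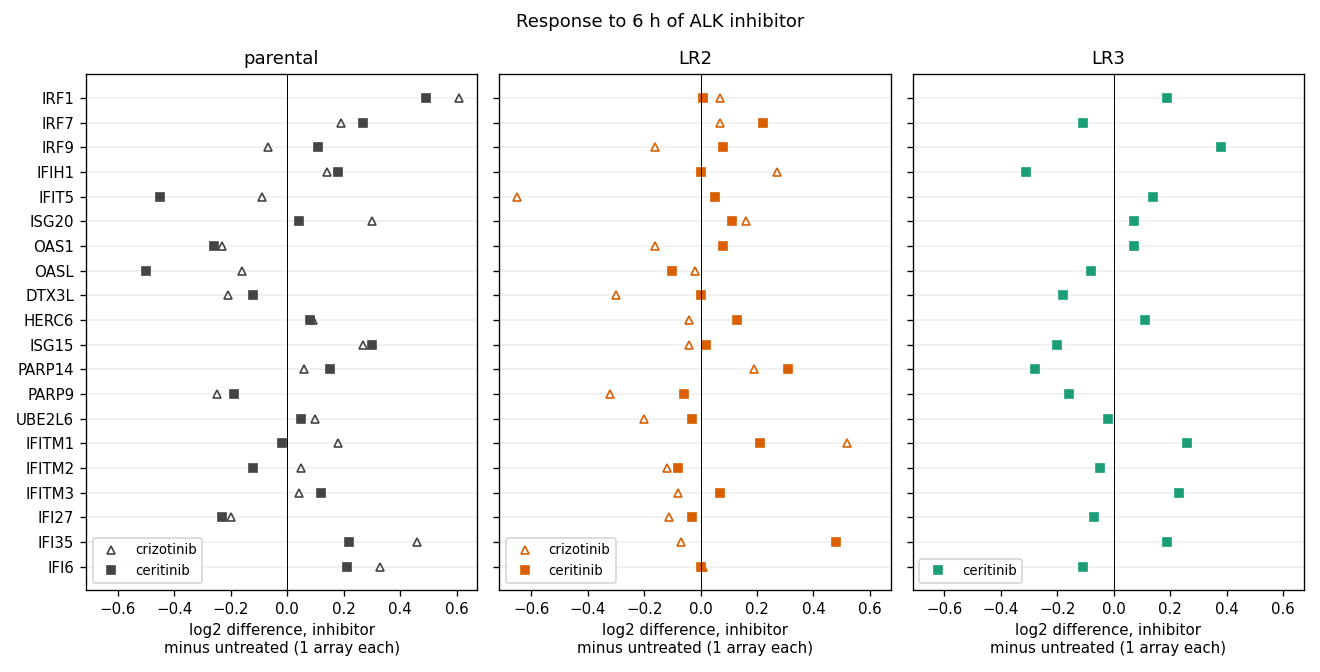
Log2 difference of each inhibitor array from the untreated array of the same line (x axis) for the 20 tested members, with 1 array on each side of a difference. Points for IRF1, from the probe set used, lie at 0.61 and 0.49 in parental cells and at 0.07 and 0.01 in LR2. Most members lie within 0.30 of 0.

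Crizotinib and ceritinib were given at the same dose and time, and parental and LR2 cells received both. The agents were compared in the additive fit on all 8 arrays, so the LR3 arrays entered the estimates too. No member and no gene was called between the agents in limma, and 1 member, IRF9, and 637 genes had an unadjusted p under 0.05. The member differences, ceritinib minus crizotinib, ranged from -0.23 to 0.26. For IRF9 the difference was 0.26 ± 0.09, with a 95% interval from 0.04 to 0.48 (adjusted p = 0.771). For IFITM1 it was -0.23 ± 0.10, with an interval from -0.46 to 0.00. The widest interval was that of IFIT5, from -0.25 to 0.70, so differences of that size between the agents could not be seen for it.

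Upstream genes of the pathway were read from further lists. All 17 interferon ligand genes with a probe set were dim, with values between 2.12 and 5.28, and among them were IFNB1 and IFNG. Of 8 tested receptor and kinase genes, 2 were higher and 1 lower in LR2, and 0 were called in LR3 against parental cells, beside 22.5% and 21.6% of all genes. In LR3 against LR2, 1 was higher and 2 were lower, beside 19.6% of all genes. IFNLR1, the receptor chain specific to type III interferon, rose by 0.38 ± 0.10 in LR2 (adjusted p = 0.0345) and JAK1 by 0.29 ± 0.09 (adjusted p = 0.0478). IFNGR1, the binding chain for type II interferon, fell by 0.42 ± 0.12 (adjusted p = 0.0423). LR3 exceeded LR2 in IFNGR1 by 0.49 ± 0.14 (adjusted p = 0.0466), and it was lower in IFNLR1, at -0.49 ± 0.12 (adjusted p = 0.026), and in the kinase TYK2, at -0.40 ± 0.08 (adjusted p = 0.0118).

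Of 8 tested transcription factors and inhibitors of the pathway, IRF2 alone was called, with a rise of 0.42 ± 0.08 in LR2 (adjusted p = 0.00703). The share of all genes called in LR2 was 22.5%. The feedback inhibitors SOCS1 and SOCS3 were dim. Of 6 tested sensors and adaptors, STING1 alone was called, in LR2, beside the same 22.5% of all genes. STING1, the adaptor of cytosolic DNA sensing, was 7.13 untreated, 6.82 with crizotinib and 6.98 with ceritinib in parental cells and 6.34, 6.10 and 6.49 in LR2. It fell there by 0.67 ± 0.10 (adjusted p = 0.00294), and in LR3 it differed by -0.31 ± 0.11 without a call. The RNA sensor RIGI and the DNA sensor CGAS, listed under older names, were dim.

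Of 28 tested interferon-induced genes outside the 42, 9 were higher and 3 lower in LR2, with a median of 0.12, and 10 were higher and 1 lower in LR3, with a median of 0.23. The medians over all genes were 0.02 and 0.01, and the shares of all genes called are those given for the members. The LR2 count of 12 became 6 when the LR2 ceritinib array was left out and 4 when the untreated LR2 array was. The shares of all genes called without an array are not given here. The LR3 count of 11 became 6 when the untreated parental array was left out, 5 when the untreated LR3 array was, 1 when the LR3 ceritinib array was, and 0 with matched arrays alone (13 at an unadjusted limma p under 0.05).

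In LR2 the largest of these rises were those of the tryptophanyl-tRNA synthetase WARS1, 0.87 ± 0.10, and of TRIM14, 0.78 ± 0.07, an adaptor of antiviral signalling. CMPK2, a mitochondrial nucleotide kinase, rose by 0.51 ± 0.12. In LR3 the largest were those of the guanylate-binding protein GBP3, 0.84 ± 0.09, of CMPK2, 0.77 ± 0.14, of the apolipoprotein gene APOL2, 0.64 ± 0.13, and of the nuclear body protein SP110, 0.51 ± 0.09. IFI30, a lysosomal thiol reductase, fell in both lines, by 0.36 ± 0.06 and 0.48 ± 0.08. LGALS3BP, a secreted glycoprotein, fell by 0.37 ± 0.08 in LR2 and rose by 0.41 ± 0.09 in LR3, and the lines differed from each other by 0.77 (adjusted p = 0.00159). As among the 42, 15 of 43 genes of this list with a probe set were dim, such as RSAD2, CXCL9, CXCL11 and IDO1.

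**Figure D5:**
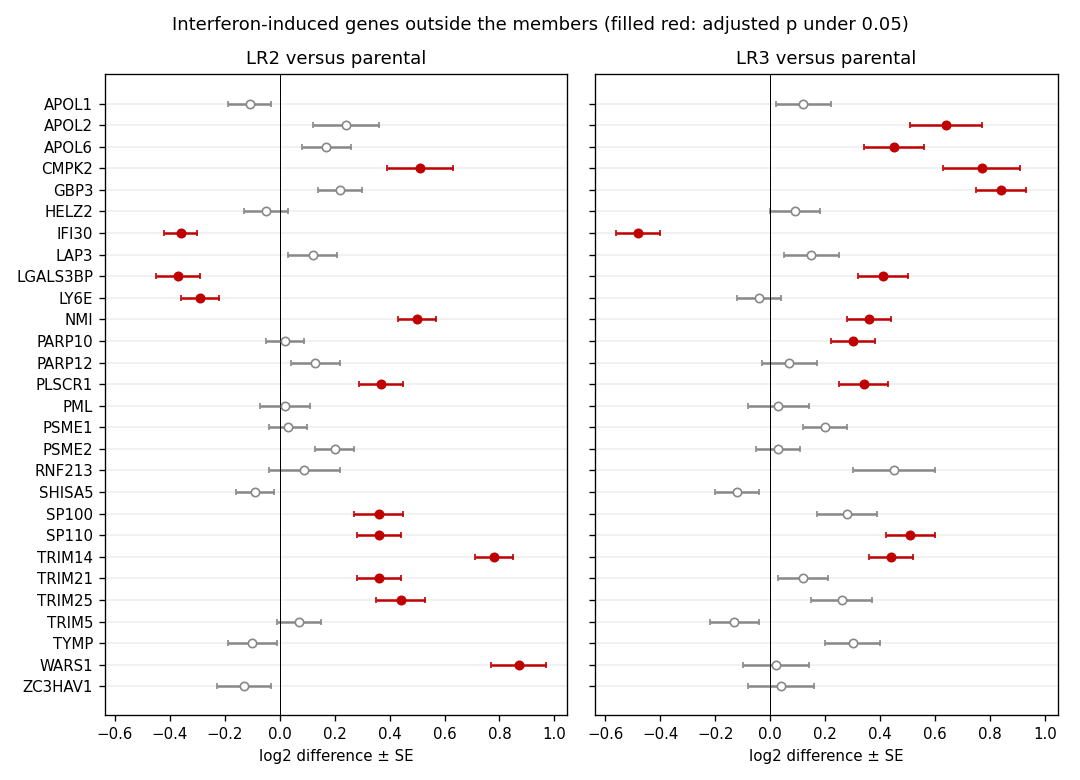
Log2 difference from parental cells (x axis, with standard error of limma as bars) of 28 tested interferon-induced genes outside the 42, in LR2 (left) and LR3 (right), with filled red points for an adjusted p under 0.05. Red points lie to the right of 0 for 9 genes in LR2 and 10 in LR3, and to the left for 3 and 1.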

How the data were processed

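Total RNA from 8 samples was amplified and biotin-labelled with a 3' IVT kit, per the labels' protocols. The authors deposited log2 signals per probe set, and RMA is named in the submitters' processing notes, with the version and the arrays normalized together not given in the sources used here. No further normalization was applied. The table held 49395 probe sets, 102 of them controls, of which 44988 had 1 gene symbol, 1832 several and 2473 none in the platform's probe table, which names no genome build.

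Line and agent comparisons used limma 3.58.1 in R 4.3.3 on all 10527 tested genes, with additive terms for line and agent (3 residual and 4.99 prior degrees of freedom). Responses within a line used 6 cells of line by inhibitor or none (2 residual and 3.43 prior). The threshold was 0.05 on p-values adjusted by Benjamini-Hochberg across all tested genes. Values after ± are standard errors, and the number of arrays limits the precision. The model was tested on simulated data. Members with a called difference of at least 0.5 were to be given array by array, and other members by counts; some smaller ones are given array by array too, chosen after their values were seen. The members and gene lists were chosen with earlier results of these data known. Alternatives covered scaling, filter, probe sets, moderation, the agent term and leaving out each array.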

Additional observations from a re-analysis of the deposited data

How the results depend on the processing

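Each of the 21 member calls between lines was recomputed under 15 to 18 alternatives, 346 values in all. None changed sign, 286 kept the call, and 8 calls were kept under every alternative run for them. Among these 8 were both calls of UBE2L6 and the call of IFI35 between LR3 and LR2. Both genes passed the brightness filter through 1 line alone. An alternative that did not test a gene was not counted for it, and all alternatives used the same arrays, so the counts are not separate support. Without probe sets of the suffixes _s_at, _x_at or _a_at, 3 members were left to test, and 0 were called in LR2, 1 in LR3 and 1 between LR3 and LR2, with 4, 3 and 1 calls among other interferon-induced genes. Without _s_at and _x_at alone, chosen after seeing the data, 13 members were tested, with 5 calls in LR2, 6 in LR3 and 3 between them, and 7, 7 and 2 among the other genes. Fewer genes were tested in both settings. Matched arrays alone gave 0 member calls in LR3 against parental cells, and 0 and 3 calls among other induced genes in LR3 against parental cells and against LR2, with fewer degrees of freedom. Leaving out 1 array gave 4 to 9 member calls in LR2, 3 to 7 in LR3, 4 to 7 between them and 0 to 2 for crizotinib, and 4 to 12, 1 to 12 and 2 to 6 among other induced genes. Every other alternative left the member counts within 1.5 times, and counts for ceritinib, for ceritinib against crizotinib and for responses within lines stayed at 0. Calls gained under an alternative and not given above were IFI35 in LR2 with the mean of probe sets, SAMD9 in LR2 with no filter, and ISG20 between LR3 and LR2 with both other scalings. The alternatives for other induced genes were also chosen after seeing the data. Counts without an array stand here without the shares of all genes called in the same fits. The labels give no shared replicate numbers, so no block by replicate was fitted, and lines were matched by agent alone. Signals near or below the overall median limit what can be seen for dim members.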
